A study of Mus musculus with 6 samples.

Results

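The chemokine and chemokine receptor genes of the infarcted mouse heart are described here. Members were taken by name: gene symbols that begin with Ccl, Cxcl, Cx3cl or Xcl (ligands) or Ccr, Cxcr, Cx3cr, Xcr or Ackr (receptors) followed by a digit, together with *Pf4*, *Ppbp* and *Ccrl2*. No measured value entered this choice. Of 70 mouse symbols that fit, 58 were listed above 0 in at least 1 library (35 ligands and 23 receptors), out of 17441 genes listed in all. Of these, 39 (27 ligands and 12 receptors) had 1 FPKM or more in 2 or more libraries and were tested, among 13120 genes. FPKM, a count of fragments scaled by gene length and by the fragments of the library, lets levels be compared between genes.

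RNA came from heart tissue below the ligature of male mice aged 12 weeks, taken 3 days after surgery, in 3 groups of 2 libraries each. WT Sham mice had the operation without ligation. WT MI mice had the left anterior descending coronary artery tied to give a myocardial infarction. *Card9* KO MI mice, which carry a knockout of the gene of the innate immune adapter CARD9, had the same ligation. The strains are on a C57BL/6 background. No sham-operated *Card9* KO mice were analysed here, so the effects of genotype and infarction cannot be told apart when *Card9* KO MI is set against WT Sham. *Card9* itself, the check of the genotype, was listed at 0.99 and 1.03 FPKM in sham hearts, 3.39 and 5.08 in infarcts of WT mice and 9.85 and 6.94 in those labelled *Card9* KO. It was thus not lower where it should have been deleted, so *Card9* does not check the genotype here and the group of each infarct library is the one on its label.

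Chemokines are small secreted proteins that guide leukocytes along a gradient. They are bound by G protein-coupled receptors on the leukocyte, which signal through Gi proteins, and by atypical receptors, which do not signal through G proteins and instead take up, transport or present the ligand. In the infarcted heart, ELR CXC ligands draw neutrophils through CXCR2 in the first days. CCR2 ligands such as CCL2 draw inflammatory monocytes from bone marrow and spleen, while the CXCL12 and CXCR4 pair retains and homes progenitor cells.

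Many inflammatory chemokine genes are classical targets of the transcription factor NF-κB, which CARD9 activates in myeloid cells. Windows from 250 bases before to 50 after the gene start were taken from RefSeq (GRCm38.p6) and matched 45 of the 58 members. Members without a window here included *Ccl2*, *Ccl4*, *Ccl5*, *Ccl7*, *Ccl11*, *Ccl24*, *Ccr7*, *Ccr10*, *Cxcl5*, *Cxcl11*, *Cxcl16* and *Cxcr5*. The 10-letter NF-κB consensus, searched on both strands, was found in 10 of the 45 members and in 5.14% of the 27025 genes with a window. The members were *Cxcl1*, *Cxcl2*, *Cxcl3*, *Cxcl10*, *Ccl9*, *Ccl27a*, *Ackr2*, *Ccr3*, *Ccr6* and *Ccrl2*, a set that held genes that rose, fell and did not pass the test after infarction. *Cxcl1*, *Cxcl2* and *Cxcl3*, neighbouring ligands of CXCR2 on chromosome 5, held the same 10 letters, GGGAATTTCC, which stood in the windows of 0.11% of all genes and in no other member but *Ccr3*. The 120 bases before each of these 3 starts are shown because the genes moved together in the libraries. They are on the plus strand at chr5:90891125-90891244, chr5:90903779-90903898 and chr5:90785981-90786100 (GRCm38.p6), with the NF-κB match in capitals.
Cxcl1: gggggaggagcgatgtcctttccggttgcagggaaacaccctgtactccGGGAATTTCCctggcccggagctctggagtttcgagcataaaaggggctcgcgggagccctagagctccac
Cxcl2: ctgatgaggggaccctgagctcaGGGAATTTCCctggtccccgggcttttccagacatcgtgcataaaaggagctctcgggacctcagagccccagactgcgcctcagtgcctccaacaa
Cxcl3: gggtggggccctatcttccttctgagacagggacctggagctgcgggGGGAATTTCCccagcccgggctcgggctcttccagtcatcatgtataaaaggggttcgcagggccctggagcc
The capitals began 71 bases before the start in *Cxcl1*, 97 in *Cxcl2* and 73 in *Cxcl3*. A match describes the letters and is not evidence of binding. TGANTCA, the AP-1 motif, searched on both strands in the same windows, was in 10 of the 45 and in 8.97% of all genes.

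Depth was estimated from the spacing of low FPKM values at 2986195 to 3129897 fragments in WT Sham and 3890353 to 4273786 in the infarct libraries. A member's transcript covered by 3 fragments would be listed at 0.16 to 2.36 FPKM, with a median of 0.55 over members and libraries. The lowest values of short ligands thus rest on few fragments and carry a large counting error. Cardiomyocyte markers summed to 46819 and 48070 FPKM in sham hearts, 30223 and 30883 in WT infarcts and, in *Card9* KO MI, 25315 and 29293. Monocyte and macrophage markers summed to 484 and 417 in sham hearts, 1606 and 2030 in WT infarcts and, in *Card9* KO MI, 3160 and 2331. The tissue label heart thus had its markers in every library, beside a share of leukocyte RNA that moved with the group. In whole tissue, more cells of a type cannot be told apart from more RNA per cell.

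Most tested members were higher after infarction. In WT MI against WT Sham, 27 of the 39 tested members rose and 3 fell (limma on log2(FPKM + 1), Benjamini-Hochberg adjusted p below 0.05), where 27.7% of all genes tested rose and 9.39% fell. Ligands accounted for 19 of the increases and receptors for 8. The median difference of the members was 1.77 on the log2(FPKM + 1) scale against 0.19 over all genes tested, and 1.65 over the 35 members that were not listed at 0 in both WT Sham libraries. The filter on low values favours increases: 15 of the 39 tested members were under 1 FPKM in at least 1 WT Sham library, and 12 of these rose. Among the 24 members with at least 1 FPKM in both WT Sham libraries, 15 rose, 3 fell and 6 did not pass the test.

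The order of the ligands by level changed with infarction. In both WT Sham libraries the 3 most abundant ligands per length were *Cxcl12*, *Ccl21a* and *Cxcl14*, ligands of resting tissue, which held 44.1% and 49.4% of the summed ligand FPKM. In both WT MI libraries they were *Ccl6*, *Ccl2* and *Pf4*, at 52.5% and 46.2% of the sum, and the same 3 genes led in the libraries labelled *Card9* KO MI at 47.8% and 39.2%. Summed over the 35 ligands, FPKM was 179 and 174 in sham hearts, 807 and 993 in WT infarcts and, in *Card9* KO MI, 731 and 611. The 18 conventional receptors summed to 14.2 and 15.3 FPKM in sham hearts, 85 and 84.2 in WT infarcts and, in *Card9* KO MI, 124 and 100.3. Ligand and receptor sums thus both rose with infarction, while between the infarct groups the ligand sum was lower and the conventional receptor sum higher in *Card9* KO MI, with no overlap of the libraries in either.

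**Figure D1:**
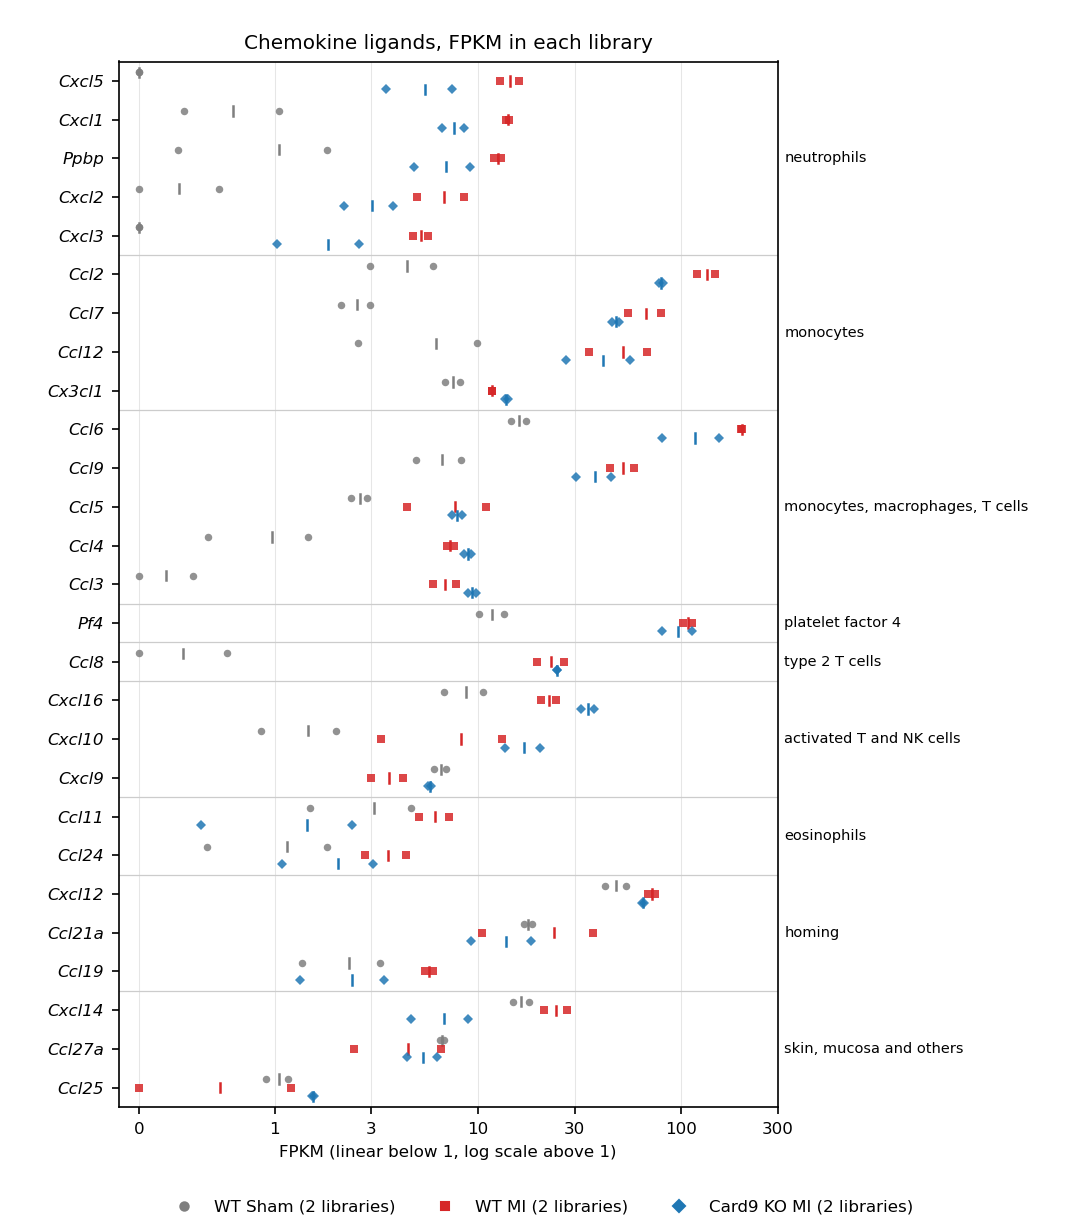
FPKM of the 27 tested chemokine ligands (linear below 1, log scale above 1) in WT Sham (grey circles), WT MI (red squares) and *Card9* KO MI (blue diamonds), 2 libraries a group, with a vertical tick at each group mean and classes named on the right by the leukocyte they recruit. The red points of the neutrophil ligands lie to the right of both other groups, up to 16.1 FPKM for *Cxcl5*, and *Cxcl14* is the ligand whose blue points (8.94 and 4.72) lie below grey and red alike.

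The neutrophil-attracting ELR CXC ligands, named for a Glu-Leu-Arg motif before the first cysteines, were near 0 in sham hearts. *Cxcl5*, a ligand of CXCR2 also known as LIX, was listed at 0 in both WT Sham libraries, at 12.9 and 16.1 FPKM in WT MI, and at 7.47 and 3.52 with the *Card9* KO label. *Cxcl3* was likewise listed at 0 in both WT Sham libraries, with WT MI at 5.7 and 4.79 and *Card9* KO MI at 2.62 and 1.03. For both genes the libraries ordered without overlap, with WT MI on top and *Card9* KO MI between. *Cxcl1*, the mouse keratinocyte chemoattractant, stood at 0.33 and 1.05 FPKM in sham hearts, 13.9 and 14.3 in infarcts of WT mice and 8.61 and 6.66 in those labelled *Card9* KO, a log2(FPKM + 1) difference of 3.19 ± 0.23 (SE) in WT MI against WT Sham (adjusted p = 8.4e-05, limma). *Cxcl2*, the macrophage inflammatory protein that acts on the same receptor, had WT Sham values of 0.59 and 0 FPKM, WT MI values of 5.03 and 8.57 and *Card9* KO MI values of 3.83 and 2.2. Its log2 difference in WT MI was 2.59 ± 0.34 (adjusted p = 0.00095, limma). The WT Sham and WT MI libraries did not overlap for either gene. *Ppbp*, the platelet basic protein that is cut to CXCL7, had WT Sham values of 0.29 and 1.82 FPKM, WT MI values of 12 and 13.1 and *Card9* KO MI values of 9.16 and 4.88. Its log2 difference in WT MI was 2.83 ± 0.38 (adjusted p = 0.00114, limma). *Cxcl5* and *Cxcl3* passed the same test (adjusted p = 8.8e-05 and 0.00047, limma). Thus 5 of the 5 tested ELR ligands rose, beside 27.7% of all genes tested. All 5 were under 1 FPKM in at least 1 WT Sham library, so the filter on low values favours this count. *Cxcl15*, the sixth, reached at most 0.12 FPKM.

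Against WT MI, each of the 5 tested ELR ligands had lower values in both libraries labelled *Card9* KO MI. Between these groups 52.7% of all genes tested did not overlap, in either direction. None of the 5 ligands passed the adjusted test of limma. An unadjusted p below 0.05 was found for 4 of them, beside 20% of all genes tested. The *Card9* KO MI means were 54.3% of the WT MI mean for *Cxcl1*, 44.3% for *Cxcl2*, 34.8% for *Cxcl3*, 38% for *Cxcl5* and 56% for *Ppbp*. The difference was -1.31 ± 0.29 for *Cxcl5* (adjusted p = 0.075) and -1.20 ± 0.29 for *Cxcl3* (adjusted p = 0.094, limma for both). *Cxcl1* differed by -0.81 ± 0.23 (adjusted p = 0.12, limma). Their 95% intervals lay below 0, at -1.99 to -0.64, -1.88 to -0.52 and -1.35 to -0.27. For *Cxcl2* the adjusted p was 0.17 and for *Ppbp* 0.29 (limma), with intervals of -1.73 to -0.17 and -1.70 to 0.08. With 5 FPKM added before the log, which gives less weight to low values, *Cxcl1* (-0.60) and *Cxcl5* (-0.91) were called lower (adjusted p = 0.048 for both, limma). Even so the level stayed above sham, and all 5 rose in *Card9* KO MI against WT Sham (adjusted p from 0.00016 for *Cxcl1* to 0.00511 for *Cxcl2*, limma). In that comparison 34.8% of all genes tested rose and 14.3% fell.

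Neutrophil markers moved in the same order as their ligands. The 16 of 19 markers that were listed summed to 9.9 and 5.3 FPKM in sham hearts, 260.0 and 126 in WT infarcts and, in *Card9* KO MI, 84.1 and 61.6, and *S100a9*, the most abundant, stood at 94 and 39.2 in WT MI against 21.2 and 14.7 in *Card9* KO MI. All 13 tested markers had a lower mean log2(FPKM + 1) in *Card9* KO MI than in WT MI (median -0.64), *Padi4* by only -0.03. None had an adjusted p below 0.05. An unadjusted p below 0.05 was found for 7 (limma), beside 20% of all genes tested. The defining marker *Ly6g* was listed in no library, as were *Camp* and *Elane*. The part of these cells in the ligand levels was not tested.

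**Figure D2:**
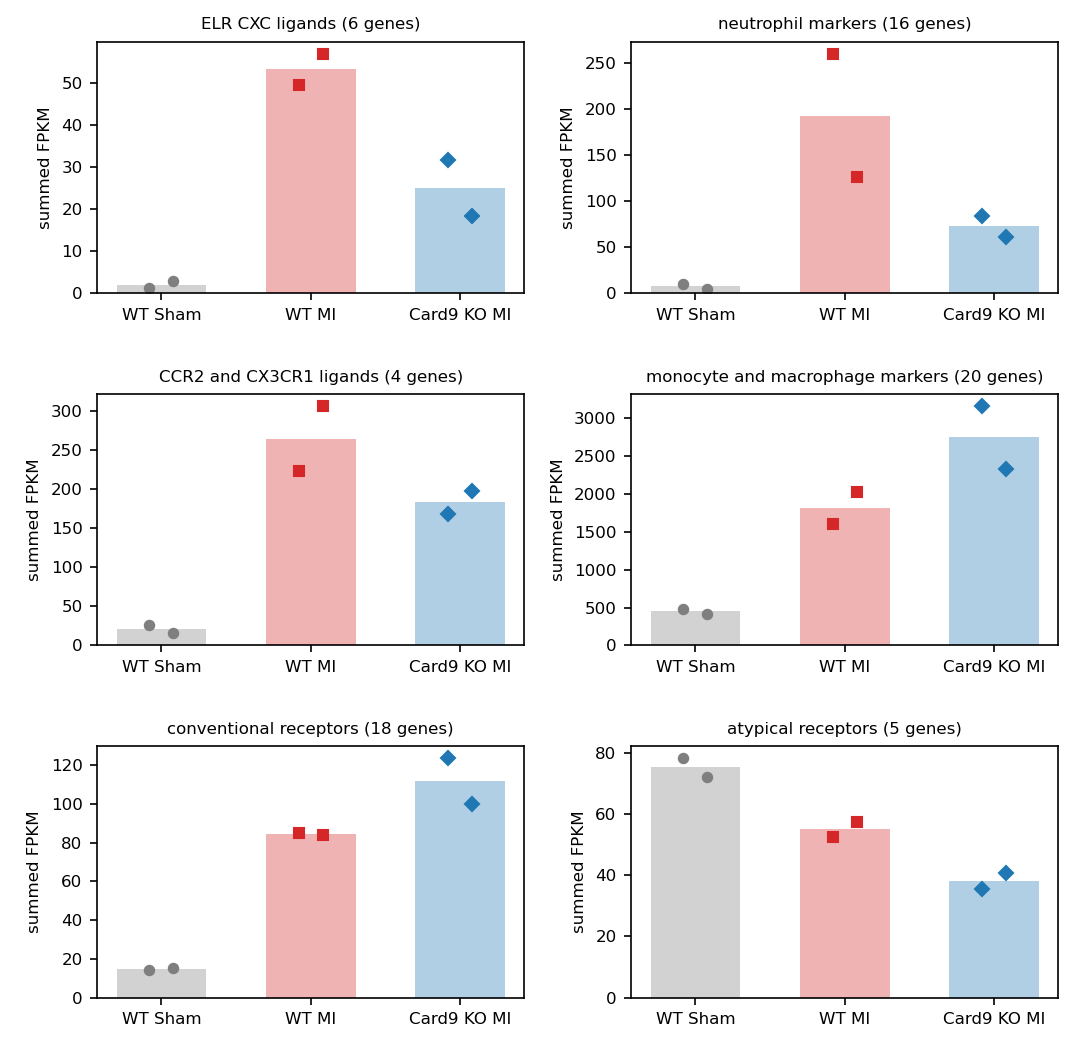
Summed FPKM (linear axes from 0) of ELR CXC ligands, neutrophil markers, CCR2 and CX3CR1 ligands, monocyte and macrophage markers, conventional receptors and atypical receptors, with bars at the mean of 2 libraries and a point for each library. The ELR ligand sum is 49.5 and 56.9 in WT MI against 31.8 and 18.4 in *Card9* KO MI. The atypical receptor sum falls from 78.4 and 72.2 in WT Sham to 35.4 and 40.7 in *Card9* KO MI. *Ackr3* alone makes up 66.7 and 61.6 of the WT Sham sums and 23.7 and 28.4 of the *Card9* KO MI sums. The fall of the sum is thus that of *Ackr3* and not of the class.

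Monocyte-attracting ligands included the 2 members with the largest log2(FPKM + 1) differences in WT MI against WT Sham, *Ccl2* and *Ccl7*. This order depends on the 1 FPKM added, which shrinks the differences of genes near 0 in sham hearts. By group means *Ccl8* was 71 times as high in WT MI, on a WT Sham mean of only 0.325 FPKM. *Ccl2* (MCP-1, chr11:81849073-81850955 in mm9, plus strand), the main ligand of CCR2, had WT Sham values of 6.05 and 2.95 FPKM, WT MI values of 121 and 147 and *Card9* KO MI values of 81.8 and 78.1. It was 29.8 times as high in WT MI as in WT Sham by group means, a log2(FPKM + 1) difference of 4.67 ± 0.24 (adjusted p = 2.5e-05, limma). *Ccl7* (MCP-3), which acts on CCR1 and CCR3 as well as CCR2, followed with 2.13 and 2.96 FPKM in sham hearts, 55.2 and 79.6 in infarcts of WT mice and 46.1 and 49.7 in those labelled *Card9* KO. In WT MI it rose by 4.26 ± 0.19 (adjusted p = 1.7e-05, limma). Both genes had WT MI libraries above all others. *Ccl12* (MCP-5), a further CCR2 ligand, was uneven within groups, with WT Sham values of 9.92 and 2.59 FPKM, WT MI values of 35.4 and 68.3 and *Card9* KO MI values of 27.3 and 56. It rose by 3.00 ± 0.55 in WT MI (adjusted p = 0.00448, limma). *Cx3cl1*, the membrane-anchored ligand of CX3CR1 on endothelial cells, moved least, from 8.2 and 6.88 FPKM in sham hearts to 11.8 and 11.8 in WT MI, beside 13.6 and 14.1 in *Card9* KO MI, and passed the test against WT Sham at a difference of 0.59 ± 0.13 (adjusted p = 0.011, limma). That call was lost with quantile normalization (0.32) and without WT Sham replicate 2 (0.48), WT MI replicate 1 (0.59) or WT MI replicate 2 (0.59).

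*Ccl2* and *Ccl7* were lower in both libraries labelled *Card9* KO MI than in both of WT MI, with differences of -0.73 (95% interval -1.30 to -0.16) and -0.46 (-0.90 to -0.02), with adjusted p = 0.16 and 0.23 (limma). For *Ccl12* the interval was -1.60 to 0.95, the groups overlapped, and the sign of the difference turned to 0.14 without WT MI replicate 2 and to 0.18 without *Card9* KO MI replicate 1. The monocyte and macrophage markers went the other way, with 15 of 20 higher in *Card9* KO MI than in WT MI (median 0.45). Of the 20, 0 were called higher and 1 was called lower. An unadjusted p below 0.05 was found for 10 (limma), beside 20% of all genes tested. The 1 called lower, named after its values were seen, was *Lyve1*, a marker of resident macrophages and lymphatic vessels, with 12.6 and 14.4 FPKM in WT MI against 4.7 and 6.84 in *Card9* KO MI. *Lyz2*, the most abundant, stood at 617 and 830.2 in WT MI against 1168 and 821 in *Card9* KO MI. Whether the cell content bears on the ligand levels was not tested.

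Among ligands of CCR1 and related receptors, which act on monocytes, macrophages and T cells, all 5 rose in WT MI, beside 27.7% of all genes tested. *Ccl6* (C10, chr11:83401384-83406589 in mm9, minus strand), a rodent ligand of CCR1, was the most abundant chemokine of WT MI per length, with 17.3 and 14.6 FPKM in sham hearts, 200.2 and 198 in infarcts of WT mice and 154 and 80.5 in those labelled *Card9* KO. The increase in WT MI was 3.57 ± 0.26 (adjusted p = 8.3e-05, limma). *Ccl9* (MIP-1γ), its relative, had WT Sham values of 8.32 and 4.97 FPKM, WT MI values of 44.8 and 59 and *Card9* KO MI values of 45.4 and 30.6. Against WT Sham, WT MI was higher by 2.81 ± 0.26 (adjusted p = 0.00022, limma). *Ccl6* and *Ccl9* already stood at several FPKM in sham hearts. *Ccl3* (MIP-1α) rose from 0.4 and 0 FPKM in sham hearts to 6.01 and 7.81 in WT MI, beside 9.81 and 8.98 in *Card9* KO MI, by 2.73 ± 0.22 in WT MI (adjusted p = 0.00013, limma). *Ccl4* (MIP-1β), its close relative, went from 1.46 and 0.51 to 7.61 and 7.05 and 9.3 and 8.57, by 2.11 ± 0.24 in WT MI (adjusted p = 0.0005, limma). *Ccl5* (RANTES) was uneven in WT MI at 4.47 and 11 FPKM, where sham hearts had 2.86 and 2.39 and *Card9* KO MI 8.41 and 7.44. Its increase of 1.17 ± 0.33 in WT MI (adjusted p = 0.027, limma) was no longer called without WT MI replicate 2, at 0.60, without WT Sham replicate 1, at 1.26, without WT Sham replicate 2, at 1.07, without the filter, at 1.17, or with quantile normalization, at 0.85.

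These 5 ligands split between the infarct groups. *Ccl6* was lower in both libraries labelled *Card9* KO MI (-0.83, 95% interval -1.44 to -0.23, adjusted p = 0.14, limma). Those 2 libraries differed from each other. Without *Card9* KO MI replicate 1 the difference of *Ccl6* was -1.30 and passed the test (adjusted p = 0.028, limma), and without *Card9* KO MI replicate 2 it was -0.37 and did not (adjusted p = 0.20, limma). *Ccl3* and *Ccl4* were higher in both *Card9* KO MI libraries, by 0.40 (-0.11 to 0.92) and 0.25 (-0.30 to 0.81), and neither passed the test (adjusted p = 0.36 and 0.60, limma). *Ccl9* and *Ccl5* overlapped between the infarct groups, with intervals of -1.05 to 0.15 and -0.63 to 0.90.

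*Pf4* (CXCL4), a platelet granule chemokine also made by macrophages, was the third most abundant ligand of WT MI per length. It had 10.2 and 13.4 FPKM in sham hearts, 103 and 113 in infarcts of WT mice and 114 and 81.3 in those labelled *Card9* KO. In WT MI the gene rose by 3.10 ± 0.18 (adjusted p = 3.8e-05, limma). The infarct groups overlapped (-0.17, 95% interval -0.59 to 0.25). The 6 listed platelet markers summed to 2.2 to 4.2 FPKM in every library and were at 3 and 2.5 in WT Sham against 2.4 and 4.2 in WT MI. Of the 2 that were tested none rose or fell in WT MI against WT Sham (limma, 0 with an unadjusted p below 0.05). The part of platelets in the level of *Pf4* was not tested.

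*Ccl8*, which in mice acts on CCR8 of type 2 T cells, stood at 0.65 and 0 FPKM in sham hearts, 19.7 and 26.5 in infarcts of WT mice and 24.7 and 24.7 in those labelled *Card9* KO. The infarct libraries lay far above both sham libraries, with differences of 4.21 ± 0.25 for WT MI and 4.32 ± 0.25 for *Card9* KO MI (adjusted p = 4e-05 and 2.1e-05, limma). The infarct groups overlapped, with a 95% interval of -0.47 to 0.68. Its receptor gene *Ccr8* and the other ligands of this class, *Ccl1*, *Ccl17* and *Ccl22*, reached at most 0.29, 0.49, 0.99 and 1.8 FPKM and did not pass the filter.

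Ligands of activated T and NK cells diverged after infarction. *Cxcl16*, a membrane-bound ligand of CXCR6, had WT Sham values of 10.7 and 6.85 FPKM, WT MI values of 20.5 and 24.2 and *Card9* KO MI values of 37.6 and 32.3. The rise in WT MI was 1.28 ± 0.20 (adjusted p = 0.00204, limma). *Cxcl10* (IP-10), an interferon-induced ligand of the receptor CXCR3, had WT Sham values of 2.01 and 0.9 FPKM, WT MI values of 3.36 and 13.1 and *Card9* KO MI values of 13.7 and 20.2. WT MI exceeded WT Sham by 1.72 ± 0.50 (adjusted p = 0.031, limma). The WT MI libraries of *Cxcl10* lay far apart, and the increase was no longer called without WT MI replicate 2 (0.87), without WT Sham replicate 2 (1.38), with 5 FPKM added (0.94), with quantile normalization (1.38), without the filter or without trend. *Cxcl9*, the interferon-γ-induced ligand of the same receptor, fell in WT MI, with 6.13 and 7.01 FPKM in sham hearts, 2.98 and 4.31 in infarcts of WT mice and 5.92 and 5.73 in those labelled *Card9* KO. Its log2 difference in WT MI was -0.72 ± 0.19 (adjusted p = 0.019, limma). That call was lost without WT MI replicate 1 (-0.51) or WT Sham replicate 2 (-0.63). All 3 were higher in both *Card9* KO MI libraries than in both WT MI libraries, where 52.7% of all genes tested did not overlap. None had an adjusted p below 0.05. An unadjusted p below 0.05 was found for 2 (limma), beside 20% of all genes tested. The differences were, for *Cxcl10*, 1.17 (-0.01 to 2.34), for *Cxcl16* 0.62 (0.16 to 1.08) and for *Cxcl9* 0.57 (0.14 to 1.00), at adjusted p = 0.25, 0.15 and 0.15 (limma). Without WT MI replicate 1 that of *Cxcl10* was 0.32, and it was 2.02 when replicate 2 was left out instead. T cell markers were few, with 11 genes summing to 4.3 and 5.1 FPKM in sham hearts, 9.1 and 11.5 in WT infarcts and, in *Card9* KO MI, 15.7 and 13.8. *Il7r*, the most abundant, held much of the rise, at 0.1 and 0.2, 2.75 and 2.8, and 6.75 and 4.37 in the same order. Of the 6 tested, 4 were above 0 and 2 below 0 in WT MI against WT Sham, and again in *Card9* KO MI against WT MI.

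Of the eosinophil-attracting ligands of CCR3, *Ccl11* (eotaxin) had WT Sham values of 1.5 and 4.69 FPKM, WT MI values of 5.15 and 7.23 and *Card9* KO MI values of 2.42 and 0.46, and *Ccl24* (eotaxin-2) had 0.5 and 1.81 FPKM in sham hearts, 4.46 and 2.79 in infarcts of WT mice and 1.09 and 3.04 in those labelled *Card9* KO. Neither rose in WT MI by the test (adjusted p = 0.17 and 0.059, limma). *Ccl11* was below both WT MI libraries in both *Card9* KO MI libraries, at -1.67 with a wide interval of -2.79 to -0.56 (adjusted p = 0.12, limma). Eosinophil markers were near the floor, with *Epx* and *Prg2* listed in no library and a sum of at most 1.7 FPKM.

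Of 3 tested homing chemokines, 1 passed the test after infarction. *Cxcl12* (SDF-1), which holds progenitor cells through CXCR4, was the most abundant ligand of sham hearts per length, with WT Sham values of 42.4 and 53.9 FPKM, WT MI values of 69.3 and 74.4 and *Card9* KO MI values of 64.6 and 65.8. In WT MI it rose by 0.58 ± 0.13 (adjusted p = 0.00927, limma). This was lost with quantile normalization (0.39) and without WT MI replicate 2 (0.53). *Ccl19*, a ligand of CCR7 that guides naive T cells and dendritic cells, had 1.36 and 3.32 FPKM in sham hearts, 6.04 and 5.48 in infarcts of WT mice and 1.33 and 3.48 in those labelled *Card9* KO. It was lower in both *Card9* KO MI libraries than in WT MI (-1.06, interval -1.92 to -0.21, adjusted p = 0.17, limma). *Ccl21a*, the lymphatic ligand of CCR7, varied within WT MI, with WT Sham values of 18.5 and 16.9 FPKM, WT MI values of 10.5 and 37 and *Card9* KO MI values of 18.4 and 9.32 and adjusted p = 0.83 against WT Sham (limma). *Ccl19*, *Ccl21a* and *Ccl27a* have near-identical copies or pseudogenes in the mouse genome that can share reads, so their values are uncertain. The 4 lymphatic endothelial markers summed to 28.4 and 34.6 FPKM in sham hearts, 59.3 and 59.1 in WT infarcts and, in *Card9* KO MI, 44.2 and 39.8. *Pdpn*, which other cells also express, carried the increase, and the other 3 summed to 25.7 and 31 in sham hearts, 23.7 and 23.6 in WT infarcts and, in *Card9* KO MI, 18.2 and 19.2. These 3 did not move together in WT MI against WT Sham. *Prox1*, the lymphatic transcription factor, was called lower (-0.80, adjusted p = 0.00375) and *Flt4* higher (0.61, adjusted p = 0.013, limma for both). *Mmrn1* was not called.

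*Cxcl14* (BRAK), a ligand of epithelia and stroma whose receptor is not settled, was the ligand that differed between the infarct groups by the test. It had WT Sham values of 17.8 and 15 FPKM, WT MI values of 21.3 and 27.4 and *Card9* KO MI values of 8.94 and 4.72. Both *Card9* KO MI libraries lay below all 4 others. In *Card9* KO MI against WT MI the difference was -1.74 ± 0.26 (95% interval -2.33 to -1.14, adjusted p = 0.033, limma). Against WT Sham it was -1.20 ± 0.26 (adjusted p = 0.00609, limma). WT MI against WT Sham gave 0.54 ± 0.26 (adjusted p = 0.14, limma). The call against WT MI was lost with the replicate block, without the filter or trend, without WT MI replicate 1 (-1.91, adjusted p = 0.16) and without WT MI replicate 2 (-1.56, adjusted p = 0.14, limma for both). Fibroblast markers, genes of stroma, summed to 460 and 449 FPKM in sham hearts, 952 and 1304 in WT infarcts and, in *Card9* KO MI, 1894 and 1813. *Col1a1* and *Col1a2*, the chains of type I collagen, carried that increase. The other 5 summed to 382 and 378 FPKM in sham hearts, 388 and 498 in WT infarcts and, in *Card9* KO MI, 424.5 and 436. *Dcn*, at 325 and 318 FPKM in sham hearts, made up most of that sum. Among these 5, *Lum* (0.97), *Pdgfra* (0.93) and *Pdgfrb* (0.54) were called higher in WT MI against WT Sham (adjusted p = 0.0044, 0.0012 and 0.0053, limma). *Dcn* and *Tcf21* were not called. Between the infarct groups *Dcn* and *Pdgfra* were 2 of the 7 below 0 (-0.16 and -0.52, neither called by limma). Their part in the level of *Cxcl14* was not tested. *Ccl27a*, a skin ligand of CCR10, had 6.83 and 6.51 FPKM in sham hearts, 2.47 and 6.58 in infarcts of WT mice and 6.28 and 4.48 in those labelled *Card9* KO. *Ccl25*, the thymic and gut ligand of CCR9, stayed at or under 1.57 FPKM. Neither passed the test in any of the 3 comparisons.

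**Figure D3:**
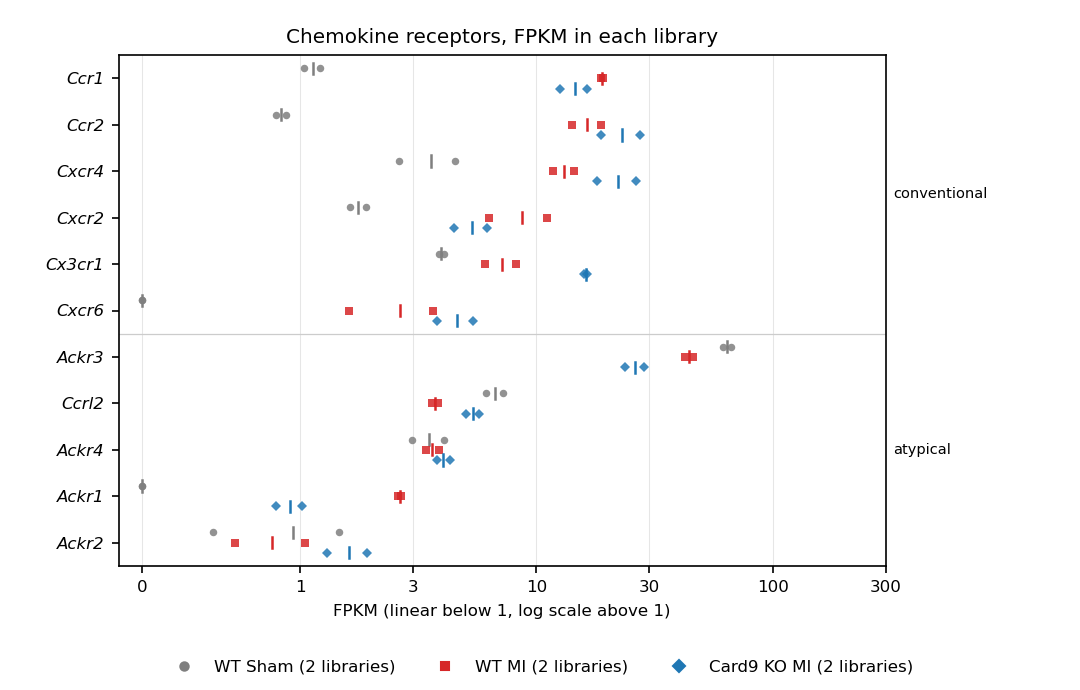
FPKM of 11 of the 12 tested chemokine receptors (linear below 1, log scale above 1), with grey, red and blue for the 3 groups as in the plot of ligands, 2 libraries a group and a tick at each mean. *Cx3cr1* stands at 16.3 and 16 in *Card9* KO MI against 6.08 and 8.18 in WT MI, and *Ackr3* steps down from grey to red to blue.

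All 7 tested conventional receptors rose with infarction in both infarct groups. The shares of all genes tested that rose against WT Sham were 27.7% for WT infarcts and 34.8% for those labelled *Card9* KO. The other 11 of the 18 listed conventional receptors did not pass the filter on low values and are not in this count. *Ccr2* and *Cxcr6* were under 1 FPKM in both WT Sham libraries and passed through the infarct libraries alone, so the filter favours the count. *Ccr1*, the receptor of CCL3, CCL6 and CCL9 on myeloid cells, had WT Sham values of 1.22 and 1.04 FPKM, WT MI values of 18.7 and 19 and *Card9* KO MI values of 16.4 and 12.6. The increase in WT MI was 3.22 ± 0.16 (adjusted p = 2.3e-05, limma). *Ccr2*, the receptor that marks recruited monocytes, had 0.85 and 0.91 FPKM in sham hearts, 14.1 and 18.7 in infarcts of WT mice and 27.5 and 18.7 in those labelled *Card9* KO. Against WT Sham, WT MI was higher by 3.20 ± 0.21 (adjusted p = 5.8e-05, limma). In sham hearts both were close to 1 FPKM. *Cxcr4*, the receptor of CXCL12, had 2.61 and 4.54 FPKM in sham hearts, 14.4 and 11.8 in infarcts of WT mice and 26.3 and 18.1 in those labelled *Card9* KO. The rise in WT MI was 1.65 ± 0.25 (adjusted p = 0.0019, limma). Ligand and receptor of the CXCL12 pair thus both rose, the receptor by the larger log2 difference. *Cxcr2*, the neutrophil receptor of the ELR ligands, had WT Sham values of 1.62 and 1.9 FPKM, WT MI values of 11.1 and 6.31 and *Card9* KO MI values of 4.47 and 6.17. WT MI exceeded WT Sham by 1.77 ± 0.26 (adjusted p = 0.00173, limma). *Cxcr6*, the receptor of CXCL16 on T and NK cells, was listed at 0 in both WT Sham libraries, with WT MI at 3.66 and 1.61 FPKM and *Card9* KO MI at 3.81 and 5.38 (adjusted p = 0.0032 for WT MI, limma).

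*Cx3cr1*, the fractalkine receptor of patrolling monocytes and of many tissue macrophages, was the member that rose between the infarct groups, in 1 of 39 members where 0.816% of all genes tested rose. It had 3.86 and 4.07 FPKM in sham hearts, 6.08 and 8.18 in infarcts of WT mice and 16.3 and 16 in those labelled *Card9* KO. The libraries of the 3 groups did not overlap. The difference was 1.09 ± 0.16 in *Card9* KO MI against WT MI (95% interval 0.71 to 1.47, adjusted p = 0.034, limma). It was 0.70 ± 0.16 in WT MI against WT Sham (adjusted p = 0.012) and 1.79 ± 0.16 in *Card9* KO MI against WT Sham (adjusted p = 0.00012, limma). The call against WT MI was lost when any 1 infarct library was left out, with differences of 0.90 to 1.28, and with the replicate block or without the filter or trend. The increase in WT MI against WT Sham was also lost without WT MI replicate 2, at 0.51, and with quantile normalization, at 0.39.

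The 6 other tested conventional receptors did not pass the adjusted test of limma between the infarct groups, and 2, *Cxcr4* among them, had an unadjusted p below 0.05. *Cxcr4*, *Ccr2* and *Cxcr6* were higher in both *Card9* KO MI libraries than in both WT MI libraries, by 0.70 (0.13 to 1.28), 0.46 (-0.03 to 0.95) and 0.67 (-0.04 to 1.38). Their adjusted p-values were 0.17, 0.28 and 0.28 (limma). *Ccr1* and *Cxcr2* were lower in both, with differences of -0.37 (-0.75 to 0.01) and -0.59 (-1.19 to 0.02), with adjusted p = 0.26 and 0.27 (limma). Leaving out WT MI replicate 1 took the difference of *Cxcr2* to -0.22, leaving out WT MI replicate 2 took it to -0.95, and leaving out *Card9* KO MI replicate 1 took it to -0.39. The part of leukocyte content in these receptor levels was not tested.

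Atypical receptors did not follow the conventional ones. *Ackr3* (CXCR7, chr1:92100555-92113326 in mm9, plus strand), which scavenges CXCL12 and is expressed by endothelial and stromal cells, was the most abundant member of sham hearts per length, with WT Sham values of 66.7 and 61.6 FPKM, WT MI values of 42.4 and 46 and *Card9* KO MI values of 23.7 and 28.4. The 3 groups did not overlap. It fell in WT MI against WT Sham (-0.53 ± 0.12, adjusted p = 0.011, limma). It differed by -0.75 ± 0.12 in *Card9* KO MI against WT MI (95% interval -1.02 to -0.47, adjusted p = 0.037) and by -1.27 ± 0.12 in *Card9* KO MI against WT Sham (adjusted p = 0.00013, limma for all). With *Cxcl14* it made up the 2 members that were lower in *Card9* KO MI than in WT MI, where 0.587% of all genes tested were lower. The call of *Ackr3* against WT MI was lost when any 1 library other than *Card9* KO MI replicate 2 was left out, with differences of -0.80 to -0.62, and also with 0.1 FPKM added, with only the 2 groups, with the replicate block, or without the filter or trend. The call against WT Sham in WT MI was lost without WT Sham replicate 1 or WT MI replicate 1, both at -0.47. Endothelial markers summed to 273 and 258 FPKM in sham hearts, 275 and 270.1 in WT infarcts and, in *Card9* KO MI, 325 and 328. Of the 6, 3 were below 0 in WT MI against WT Sham, where *Kdr* (VEGF receptor 2) was called lower at -0.68 (adjusted p = 0.00277, limma) and *Pecam1* and *Vwf* were called higher. In *Card9* KO MI against WT MI all 6 were above 0 and none was called (limma, 2 with an unadjusted p below 0.05). Their part in the level of *Ackr3* was not tested.

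*Ackr1* (DARC), which carries inflammatory chemokines across venular endothelium, was listed at 0 in both WT Sham libraries, with WT MI at 2.6 and 2.67 FPKM and *Card9* KO MI at 1.02 and 0.85. It rose in WT MI (adjusted p = 0.00059) and was lower in both *Card9* KO MI libraries than in WT MI without passing the test (-0.91, -1.42 to -0.41, adjusted p = 0.092, limma for both), which it passed with 5 FPKM added (-0.36, adjusted p = 0.0496) and without trend (adjusted p = 0.049, limma). *Ccrl2*, which binds chemerin without signalling, had 6.14 and 7.19 FPKM in sham hearts, 3.63 and 3.85 in infarcts of WT mice and 5.06 and 5.73 in those labelled *Card9* KO. It fell in WT MI (-0.69 ± 0.16, adjusted p = 0.012, limma). The call was lost without WT Sham replicate 2 (-0.59) or WT MI replicate 1 (-0.66). In *Card9* KO MI it lay between the other groups. *Ackr2* (D6), a scavenger of inflammatory CC chemokines, and *Ackr4*, a scavenger of CCL19, CCL21 and CCL25, stayed between 0.45 and 1.92 and between 2.97 and 4.29 FPKM and did not pass the test in any comparison.

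**Figure D4:**
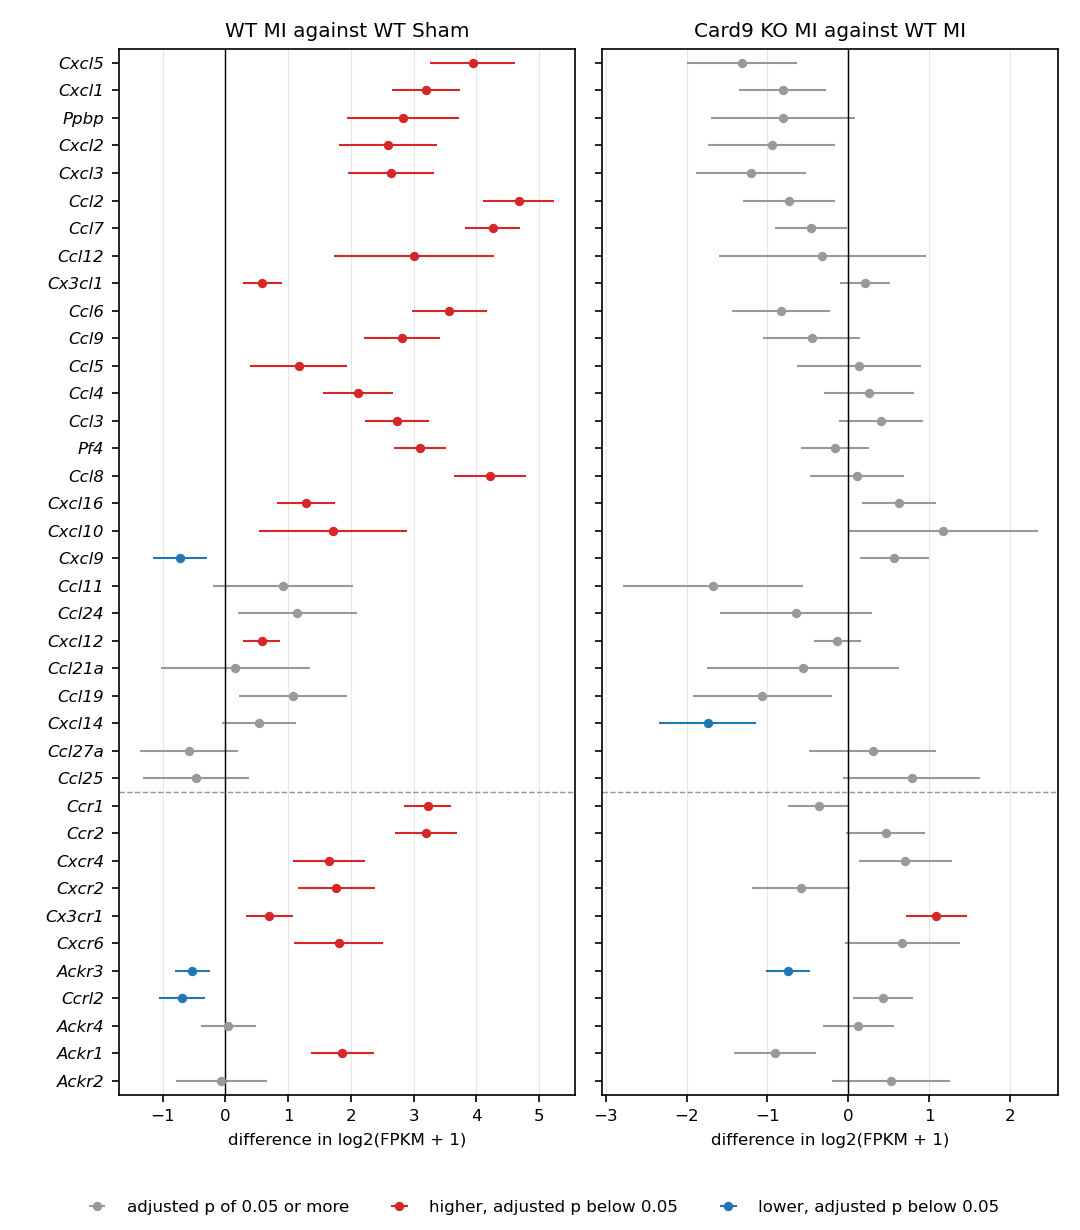
Difference in log2(FPKM + 1) of 38 of the 39 tested members in WT MI against WT Sham (left) and *Card9* KO MI against WT MI (right), with points at the estimate, bars for the 95% interval from limma, colour for calls at an adjusted p below 0.05, and ligands above the dashed line. On the left 26 members are red and 3 blue, and on the right *Cx3cr1* alone is red and *Cxcl14* and *Ackr3* are blue, with horizontal axes that differ in range.

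Taking the infarct groups as a whole, 1 of the 39 members was called higher and 2 were called lower in *Card9* KO MI against WT MI (limma, adjusted p below 0.05). At an unadjusted p below 0.05 there were 18 of the 39 members, 6 higher and 12 lower, where 20% of all genes tested had such a p. The median difference was -0.17 for the members and 0.04 for all genes tested, and the medians were -0.45 for the 27 ligands and 0.45 for the 12 receptors. Without WT MI replicate 2, the median of the members was 0.14. The libraries of the infarct groups did not overlap in 30 of 39 members, 14 of them higher and 16 lower in *Card9* KO MI, where 52.7% of all genes tested did not overlap. Among the ligands 7 were higher and 12 lower without overlap, and among the receptors 7 were higher and 4 lower. In 20 of these 30 the difference moved by over 1.5 times when 1 library was left out. Its sign could not change there, because the libraries of these members do not overlap between the infarct groups. The smallest two-sided p that exact permutation of 2 libraries against 2 allows is 0.333, and no such test was run. Against WT Sham, 27 members were called higher and 2 lower in *Card9* KO MI (limma), where 34.8% of all genes tested rose and 14.3% fell. That comparison shares its libraries with the other 2.

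Many members lie side by side in the genome. In mm9, 14 of the 57 members with an annotated position were on chromosome 11, 12 on chromosome 5 and 15 on chromosome 9. The group of 7 genes at chr5:91188325-91334935, which spans 147 kb, holds *Cxcl5*, *Ppbp*, *Pf4*, *Cxcl3*, *Cxcl15*, *Cxcl1* and *Cxcl2*. All 6 that were tested rose in WT MI, by 2.59 to 3.94, and all 6 had lower means in *Card9* KO MI than in WT MI, at -1.31 to -0.17, with none called by limma and 4 at an unadjusted p below 0.05. At chr11:81849073-82119192, 4 of the 5 tested genes (*Ccl2*, *Ccl7*, *Ccl12* and *Ccl8*) rose in WT MI, and *Ccl11*, which lies among them, did not pass the test. The next group, at chr11:83339280-83478185 (*Ccl5*, *Ccl9*, *Ccl6*, *Ccl3* and *Ccl4*), had 5 of 5 higher in WT MI and was split 3 to 2 in sign between the infarct groups.

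**Figure D5:**
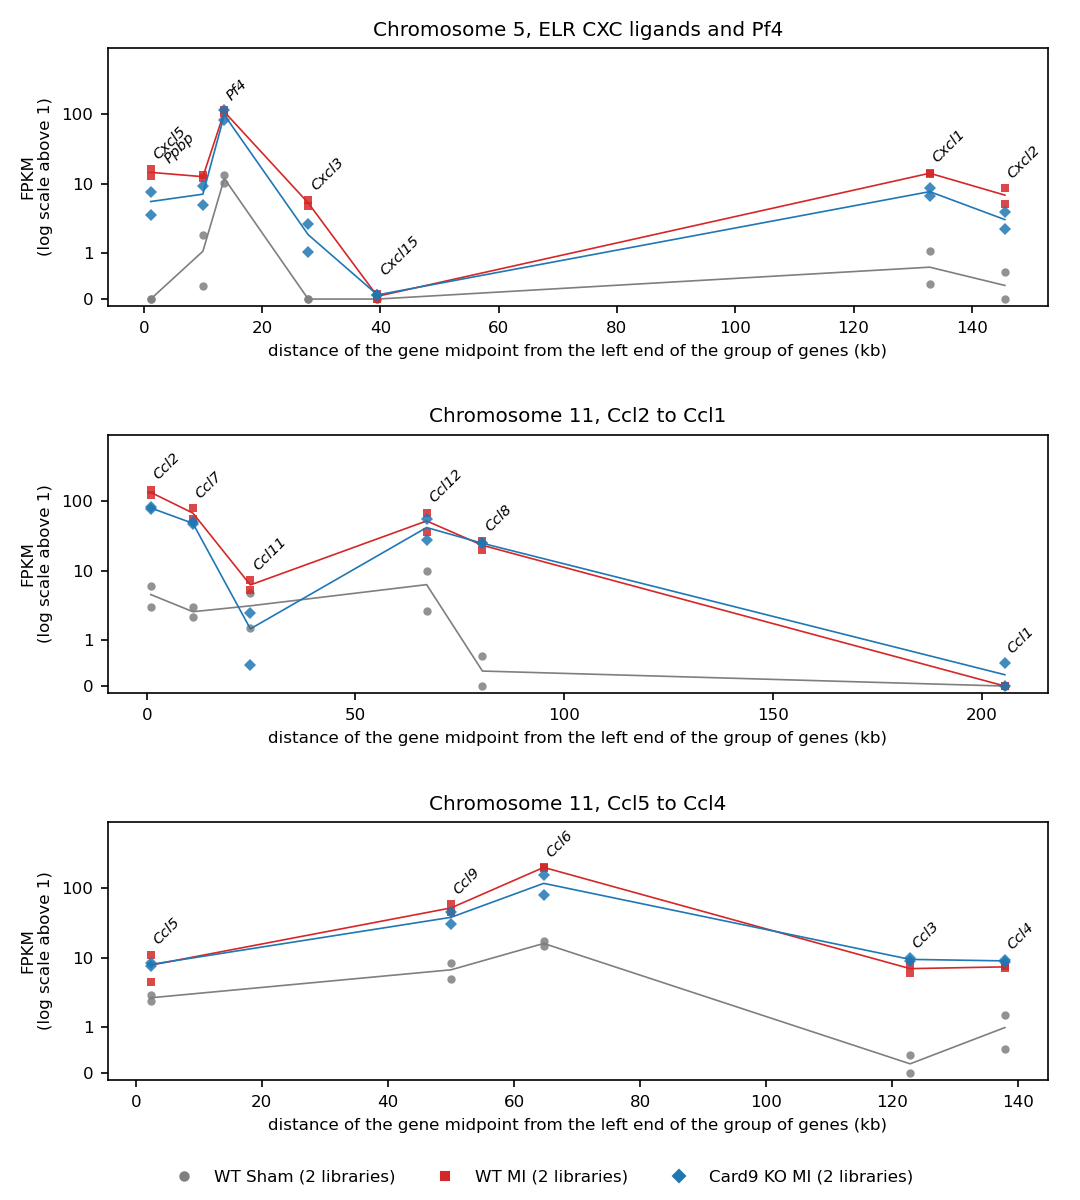
FPKM (linear below 1, log scale above 1) of neighbouring chemokine genes on chromosomes 5 and 11 against the distance in kb of the gene midpoint from the left end of the group, with a point for each library and thin lines that join group means only to guide the eye. In the top panel the red group mean lies above the blue one at each of the 6 tested genes, and in the middle panel *Ccl11* is the gene at which blue (2.42 and 0.46 FPKM) lies within or below the range of the sham values while its neighbours stay high.

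Genes that act behind the receptors were counted from lists grouped by function, which were chosen with earlier results of these data known. Of 34 chemokine receptor signalling genes, all tested, 31 rose and 0 fell in WT MI against WT Sham, with a median of 1.06, beside 27.7% of all genes that rose. The largest differences were those of *Fgr*, a Src-family kinase of myeloid cells (2.85 ± 0.27, from 0.19 and 0.49 FPKM in WT Sham to 10.3 and 7.15 in WT MI), and *Rac2*, a small GTPase of blood cells (2.35 ± 0.18, from 2.46 and 2.8 to 17.9 and 17.1). *Dock2*, which activates Rac in migrating leukocytes, followed (2.13 ± 0.22, from 1.36 and 0.56 to 7.52 and 7.27). In *Card9* KO MI against WT MI, 30 of the 34 were above 0 and 1 was called. This was *Rgs10*, a regulator that ends G protein signalling, with 12.4 and 14.6 FPKM in WT MI against 29.4 and 26.1 in *Card9* KO MI (0.99 ± 0.13, adjusted p = 0.024, limma). Of 9 genes for the processing and presentation of chemokines, 6 rose and 0 fell in WT MI. They included the heparan sulfate carriers *Sdc1* (2.80 ± 0.21, from 1.85 and 1.18 to 18.6 and 14.3 FPKM) and *Sdc4* (1.96 ± 0.14, from 5.38 and 5.48 to 27.1 and 21.2), and *Tnfaip6* (TSG-6), which binds chemokines and glycosaminoglycans (1.18 ± 0.30, from 0.84 and 0.69 to 2.81 and 3.21). None of the 9 was called between the infarct groups by limma, and 1 had an unadjusted p below 0.05.

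The 19 members that did not pass the filter, 8 ligands and 11 receptors, reached at most 1.94 FPKM, and 5 of them reached 1 FPKM in a single library. These 5 were *Cxcl13* (1.94 in WT MI replicate 1), *Ccl22* (1.8 in *Card9* KO MI replicate 1), *Ccr7* (1.59 in *Card9* KO MI replicate 2), *Cxcr3* (1.59 in WT MI replicate 2) and *Xcr1* (1.49 in *Card9* KO MI replicate 2). These 5 values stand for about 9.1 to 27.3 fragments by the depth estimate. With no filter on low values, 2 of the 19 were called higher in WT MI against WT Sham, *Ccl17* (0.78, adjusted p = 0.018) and *Cxcr3* (0.92, adjusted p = 0.032), and *Ccr7* in *Card9* KO MI against WT Sham (1.07, adjusted p = 0.014, limma for all). Between the infarct groups none of the 19 was called in that fit. *Ccl20*, *Cxcl17*, *Cxcr1* and *Xcl1* were among the 12 symbols listed in no library.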

How the data were processed

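RNA of male mouse hearts was analysed in 6 libraries, grouped by their labels. Libraries of mRNA were sequenced by the authors on an Illumina HiSeq and mapped to mm9 with BWA and Bowtie2 (submitters' processing notes). The authors deposited FPKM values per NCBI gene, for genes above 0. The gene annotation and the use of strand in counting are not given in the sources used here. Genes not listed were set to 0, and symbols and promoter windows came from RefSeq (GRCm38.p6).

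The 13120 genes that had 1 FPKM or more in 2 or more libraries were tested on log2(FPKM + 1) with limma 3.58.1 in R 4.3.3 (lmFit, eBayes with trend, all 3 groups in one fit, no covariates), with Benjamini-Hochberg adjustment. The labels do not say whether replicates are separate animals, so that p-values measure the spread between libraries. Data simulated from these libraries held 12816 genes, 200 of them changed, for *Card9* KO MI against WT MI. The fit recovered 161 of the 200 and made 11 false calls. Recovery was counted over all 200 together, and recovery at the levels and differences of the members was not tested. Depth was estimated in Python 3.11.15. Only 58.6% to 61.6% of low values lay within 0.1 of a whole fragment, so counts were not rebuilt. Every tested member is given but 1 receptor, which is counted and fitted with the others and not reported here, and the gene classes and lists were chosen with earlier results of these data known. Named signalling and processing genes are the 3 largest called changes of each list in WT MI against WT Sham and *Card9* KO MI against WT MI. Alternatives were other added values, filters, scalings and fits, the replicate block and each library left out.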

Additional observations from a re-analysis of the deposited data

How the results depend on the processing

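The direction of every called member in WT MI against WT Sham was kept under all alternatives, and 22 of the 30 kept their call in all of them. The 27 increases were 22 with quantile normalization, 23 with a mean FPKM of at least 5, 30 with only the 2 groups and 26 to 28 in the other fits. The 3 decreases stayed at 3 in all of these. Leaving out 1 library at a time gave 22 to 30 increases and 0 to 5 decreases. In *Card9* KO MI against WT MI the counts are few and fragile. The 1 increase became 0 without a filter, with eBayes without trend and with the replicate block, and was 0 to 1 with a library left out. The 2 decreases became 1 with 0.1 FPKM added, 5 with 5 FPKM added, 0 without a filter and 0 with the replicate block. With only the 2 groups compared there was 1. With eBayes without trend there was also 1, but it was *Ackr1*, and neither *Cxcl14* nor *Ackr3* kept its call. Neither of the 2 kept its call through every fit with a library left out. The causes of these moves were not tested. In *Card9* KO MI against WT Sham the 2 decreases were 4 with quantile normalization. With a library left out, the difference between the infarct groups turned in sign for some members whose libraries overlap, with ranges of -0.83 to 0.18 for *Ccl12*, -0.43 to 0.70 for *Ccl5*, -0.098 to 0.31 for *Ccl8* and -0.41 to 0.071 for *Pf4*. Scaling moved the median of all genes in WT MI against WT Sham from 0.19 to 0.05 (upper quartile) or -0.09 (quantile), and that of the members from 1.77 to 1.66 and 1.42. Replicate numbers are shared by the groups. Deviations of same-numbered libraries correlated at -0.008 to 0.02 over 13120 genes, so no shared deviation was seen over all genes. Such a correlation cannot tell whether same-numbered libraries were handled together. With the replicate block *Cx3cr1*, *Cxcl14* and *Ackr3* had adjusted p = 0.056, 0.056 and 0.066 (limma). Depth limits members under about 1 FPKM.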
